A study of Homo sapiens with 3 samples.

Results

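To ask how DNA methylation differed in Hep3B cells after loss of SOX4, the second of the SOX4 knockout lines (Hep3B SOX4 KO #2, called line 2 here) was compared with the parental Hep3B cells, 1 library each out of 3 in the series. Hep3B is a human hepatocellular carcinoma line, and its methylome was read by capture of CpG-rich and regulatory DNA with the EPIC probe set, followed by bisulfite sequencing. The line was made with CRISPR/Cas9 in earlier work of the same group; the edited site was not read for its edit, so the data hold no check of the knockout, and whether the line grew from a single clone is not given in the sources used here. Both libraries carry the same cell line label. Per the study's methods the knockout cells were grown with puromycin, which those methods do not give for the parental cells, so the knockout, the editing and this drug cannot be told apart.

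The reads of both strands were summed at each CpG, a C followed by a G. Of 3217046 CpGs read in either library, 3125623 lay on autosomes, and 2373833 of these (75.9%) had at least 10 reads in both libraries and were compared. The median depth at the compared CpGs was 30 reads in the parental library and 37 reads in line 2, and all reads numbered 104702738 and 133170621. A CpG was called when the Fisher exact test on its methylated and unmethylated reads gave a Benjamini-Hochberg adjusted p under 0.05 and the levels differed by at least 25 percentage points. Such a test compares these libraries, not the conditions. Reads copied by PCR are not independent molecules, so every interval here covers counting error only. Half-widths of means also treat CpGs as independent. Neighbouring CpGs share reads, so these half-widths are too narrow even for counting error.

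In mammalian cells most CpGs outside CpG islands are methylated, while the CpG-dense promoters of active genes are kept free of methylation. DNMT1 copies the pattern after replication, DNMT3A and DNMT3B add methyl groups to unmethylated DNA, and TET enzymes start their removal. Loss of methylation over CpG-poor DNA together with gains at particular CpG islands is a common feature of liver cancer. SOX4 belongs to the SOX family of DNA-binding transcription factors, and STAT6, the transducer of interleukin-4 signals, is the gene at which the study followed methylation.

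Stretches before 5 gene starts are shown first as sequence. Each is the 250 bases before the start of the gene, 5′ to 3′ on the strand of the gene, taken from RefSeq (GRCh38.p14) and placed on the hg19 coordinates of the deposited files by the spacing of its CpGs. Capitals mark the CpGs whose level differed by at least 25 points between line 2 and the parental library. Of the 30 promoters with the largest falls and the 30 with the largest rises, and among starts at the outer end of their gene, these had the most such CpGs: NTN4, SIX2 and OXCT1 for falls, ECT2L and FAM184B for rises.
NTN4 (netrin-4, a secreted protein of basement membranes), chr12:96184934-96185183, minus strand: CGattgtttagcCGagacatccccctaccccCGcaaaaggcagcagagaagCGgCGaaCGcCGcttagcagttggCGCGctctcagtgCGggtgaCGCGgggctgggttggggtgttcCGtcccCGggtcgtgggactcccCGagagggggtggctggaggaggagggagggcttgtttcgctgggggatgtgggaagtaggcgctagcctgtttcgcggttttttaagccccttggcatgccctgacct
SIX2 (a homeodomain factor of kidney progenitors), chr2:45236592-45236841, minus strand: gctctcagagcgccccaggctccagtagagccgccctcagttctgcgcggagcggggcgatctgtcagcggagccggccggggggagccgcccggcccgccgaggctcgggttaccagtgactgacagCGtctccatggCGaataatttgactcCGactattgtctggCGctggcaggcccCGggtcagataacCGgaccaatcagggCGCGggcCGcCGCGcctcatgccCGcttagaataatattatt
OXCT1 (the mitochondrial enzyme that lets tissues use ketone bodies), chr5:41870528-41870777, minus strand: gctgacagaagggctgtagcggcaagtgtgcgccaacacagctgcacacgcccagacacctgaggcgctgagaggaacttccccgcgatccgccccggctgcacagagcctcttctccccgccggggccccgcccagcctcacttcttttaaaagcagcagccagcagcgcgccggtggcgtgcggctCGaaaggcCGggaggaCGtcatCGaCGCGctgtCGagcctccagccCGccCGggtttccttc
ECT2L, chr6:139116974-139117223, plus strand: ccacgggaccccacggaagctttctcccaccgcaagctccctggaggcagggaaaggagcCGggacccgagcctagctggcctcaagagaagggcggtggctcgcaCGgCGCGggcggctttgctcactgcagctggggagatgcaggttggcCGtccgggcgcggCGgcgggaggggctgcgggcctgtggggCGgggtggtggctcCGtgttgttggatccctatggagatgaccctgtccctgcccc
FAM184B, chr4:17783245-17783494, minus strand: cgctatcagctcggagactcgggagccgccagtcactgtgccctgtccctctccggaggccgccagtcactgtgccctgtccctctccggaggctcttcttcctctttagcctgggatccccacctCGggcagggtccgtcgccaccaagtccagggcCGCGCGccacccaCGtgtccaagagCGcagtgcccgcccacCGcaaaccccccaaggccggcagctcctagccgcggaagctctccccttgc

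In NTN4 all 20 CpGs of the stretch were tested, 15 fell by at least 25 points, and these 15 were also called. In SIX2 12 of 26 CpGs were tested and all 12 fell, in OXCT1 9 of 16 tested CpGs fell, in ECT2L 8 of 20 rose, and in FAM184B 7 of 13 rose. In these stretches 1 CpG was called in SIX2, 1 in OXCT1, and 0 in ECT2L and FAM184B.

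Averaged over all compared CpGs, methylation stood at 43.28% in parental cells and 41.17% in line 2, a difference of -2.11 points with a counting half-width of 0.00899 (95%). Differences of single CpGs had an SD of 10.5 points. The share of CpGs at 80% or more went from 34.6% to 31.6%, the share from 20% to 80% from 19.01% to 20.4%, and the share below 20% from 46.4% to 48.0%. There is 1 library a side, so no replicate error exists for any of these values.

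Of the 2373833 CpGs, 15585 were called lower in line 2 (0.657%) and 1821 higher (0.0767%), so 89.5% of the calls were falls. At an unadjusted p under 0.05, 136243 CpGs were lower and 37805 higher by the same Fisher exact test. The median called fall went from 82.7% to 39.6%, and the median called rise from 14.1% to 56.5%. Line 2 ended between 20% and 80% at 80.2% of the called falls and 78.9% of the called rises. Most called CpGs were therefore partly methylated in line 2, rather than empty after a fall or full after a rise. The reverse ends were closed by the rule, as a call needed at least 25 points.

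The same was seen in 1 kb windows with at least 5 compared CpGs. Of 121033 windows, 778 were lower by at least 25 points (0.643%), 110 were higher (0.0909%), and 87.9% lay within 10 points. Only 2 windows fell and 1 rose by at least 50 points. No window went from below 20% to 80% or more (0 of 36174), and none went the other way (0 of 42733). Of the 42733 windows at 80% or more in the parental library, 4806 (11.2%) moved to the range from 20% to 80%. Of the 42126 windows in that range, 3204 (7.61%) moved below 20% and 1074 (2.55%) reached 80% or more. Of the 36174 windows below 20%, 887 (2.45%) moved up to the middle range.

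To see whether the fall depended on CpG density, CpGs were grouped by the number of CpGs with a read in their 1 kb window. The fall was largest in sparse windows: with 1 to 4 CpGs, the mean level went from 64.0% to 60.7%, a difference of -3.25 points over 410135 CpGs. With 80 or more CpGs, as in large CpG islands, it went from 14.8% to 13.98%, a difference of -0.769 points over 144013 CpGs. The classes between were ordered, at -2.93, -2.47, -1.87 and -1.15 points for 5 to 9, 10 to 19, 20 to 39 and 40 to 79 CpGs. As a share of the parental level the order was lost, and the differences ran from -4.47% of that level at 10 to 19 CpGs to -5.35% at 40 to 79 CpGs. The share of CpGs called lower went from 1.01% in the sparsest class to 0.157% in the densest, while the share called higher was highest at 10 to 19 CpGs (0.112%). Calls lower outnumbered calls higher 15.6-fold in the sparsest class and between 5.75-fold and 8.73-fold in the others. Depth differed little, with medians of 28 and 34 reads in the sparsest class and 31 and 38 in the densest.

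**Figure D1:**
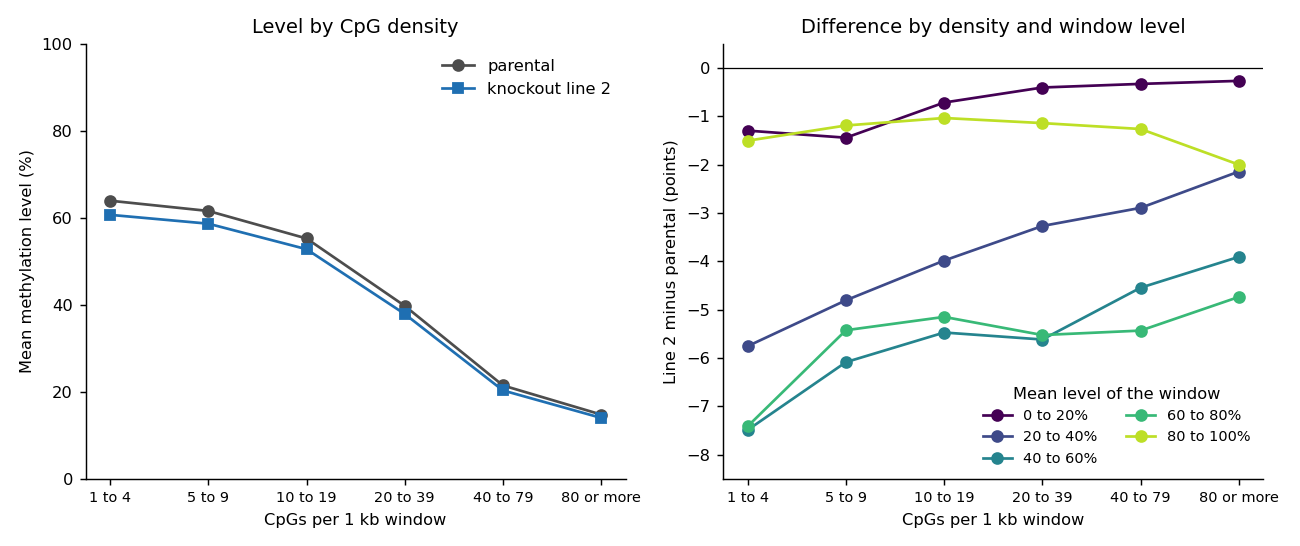
Left, the mean methylation level (%) of parental Hep3B (circles) and line 2 (squares) against the number of CpGs per 1 kb window; right, line 2 minus parental in percentage points for the same classes, with 1 line per band of the window's mean level over both libraries. Levels fell with density in both libraries, from 64.0% to 14.8% in the parental one. Windows between 20% and 80% had larger falls than windows below 20% or above 80% in every density class. Sorting by this mean level can set part of that contrast.

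Windows were then sorted by their level averaged over both libraries, so that neither library alone chose them. This average includes line 2, so a large fall from a high level moves a window toward a middle band. Bands at either end also leave less room for large differences. The sorting can therefore set part of the contrast between middle and end bands, and how much was not tested. Windows from 40% to 60% and from 60% to 80% had the largest falls, -5.82 and -5.84 points. Windows from 20% to 40% differed by -4.003 points, those below 20% by -0.529 points, and those from 80% to 100% by -1.27 points. The 3 middle bands held 29.4% of the compared CpGs and 81.4% of the called falls. Within bands, the order by density held through all classes only from 20% to 40%, where the difference went from -5.76 points at 1 to 4 CpGs to -2.14 points at 80 or more. From 40% to 60%, the sparsest class was at -7.49 points and the densest at -3.91, but the classes of 10 to 19 and 20 to 39 CpGs (-5.47 and -5.62 points) were out of order. The bands from 0% to 20% and from 60% to 80% were not in order through all classes either, and windows from 80% to 100% had -1.50 points in the sparsest class, -1.03 points at 10 to 19 CpGs and -2.00 points in the densest.

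All 22 autosomes had a lower mean level in line 2. The largest falls were on chromosome 5 (44.8% to 42.2%, -2.59 points), chromosome 18 (47.8% to 45.3%, -2.48 points) and chromosome 10 (42.7% to 40.2%, -2.46 points). The smallest were on chromosome 19 (41.3% to 39.9%, -1.46 points), chromosome 22 (44.99% to 43.4%, -1.58 points) and chromosome 16 (44.7% to 43.1%, -1.62 points). Chromosomes thus differed by 1.14 points at most, and by 0.898 points when each was weighted to the same mix of CpG density and level; chromosome 5 then kept the largest fall (-2.52 points) and chromosome 22 had the smallest (-1.63 points). Read share, the reads of line 2 over those of the parental library scaled to the median chromosome, moved too. It was 1.15 on chromosome 11, 1.08 on chromosome 1, and 0.893 on chromosome 21, 0.903 on chromosome 8 and 0.934 on chromosome 13. Across the 22 chromosomes, which share these libraries, the correlation of the difference with read share was r = -0.119, and r = -0.287 with the weighted differences. Chromosomes 11 and 21 differed by -2.38 and -2.27 points, or by -2.40 and -2.10 points when weighted.

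Of 2218 bins of 1 Mb with at least 200 compared CpGs, 2184 (98.5%) were lower in line 2 and 34 higher. The median bin differed by -2.05 points, with quartiles of -3.18 and -1.29. The median difference varied little with the bin's own level. It was -2.30 points below 30%, -2.11 from 30% to 40%, -1.94 from 40% to 50%, -2.05 from 50% to 60% and -1.91 at 60% or more. Adjacent bins were weakly alike (r = 0.155 over 1933 pairs, which share libraries). Bins with a read share of at least 1.1 had a median of -2.49 points (231 bins), those of at most 0.9 had -1.66 points (160 bins), and those within 5% of 1 had -2.03 points (1411 bins). Across the 2218 bins, which share these libraries, the correlation of the difference with read share was r = -0.190. Results in bins of even read share alone are given with the alternatives below, and the part of read share was not tested further.

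**Figure D2:**
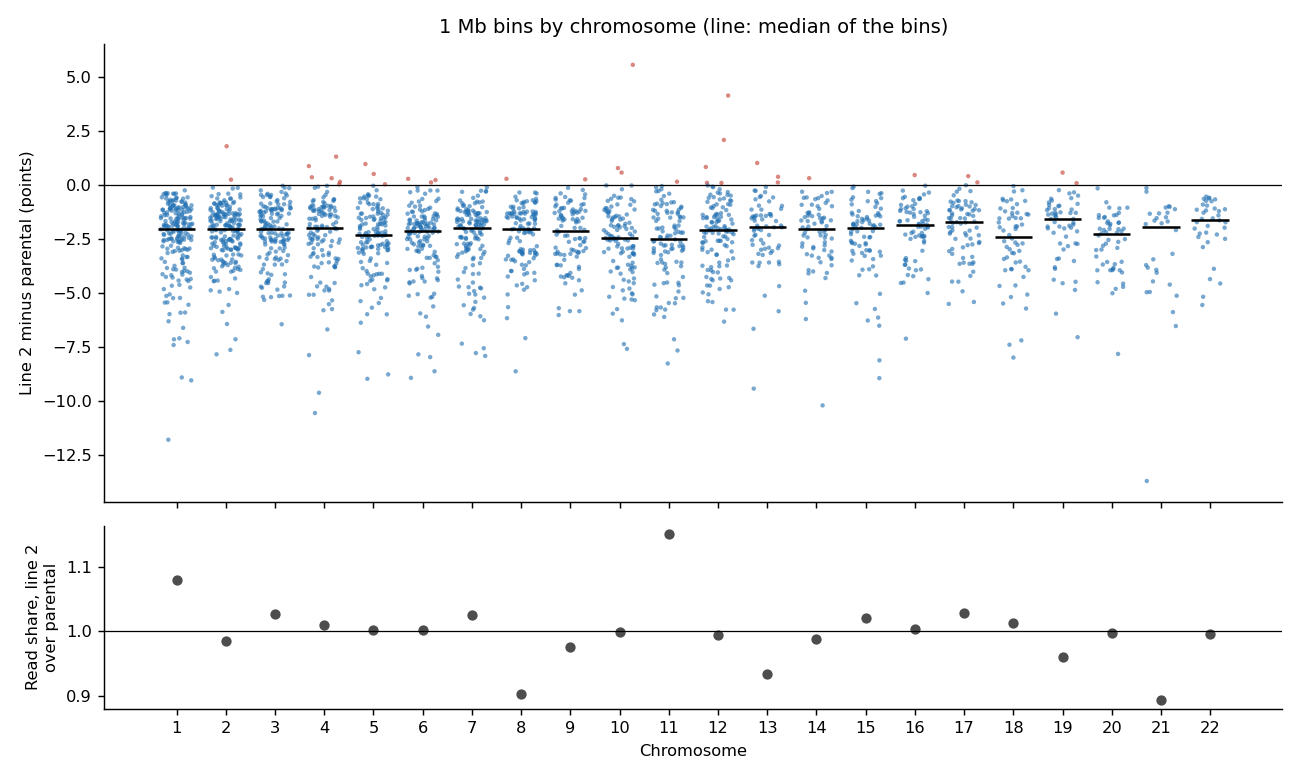
Top, line 2 minus parental (percentage points) for each 1 Mb bin, 1 point per bin, by chromosome, with the median of the bins as a line and rises in red. Bottom, read share of each chromosome, as reads of line 2 over those of the parental library, scaled to the median chromosome. Nearly all bins (2184 of 2218) lie under 0, every chromosome's median lies under 0, and read share runs from 0.893 on chromosome 21 to 1.15 on chromosome 11.

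The largest fall of a bin was on chromosome 21 from 26 to 27 Mb, which holds the start of MRPL39, a protein of the mitochondrial ribosome. Its level went from 66.1% to 52.4%, a difference of -13.7 points ± 0.954 (95% counting half-width, 282 CpGs), with 42 CpGs called lower and 0 higher. The read share was 0.867 there. Next was chromosome 1 from 217 to 218 Mb at ESRRG, an orphan nuclear receptor, with 58.0% to 46.2%, a difference of -11.8 points ± 0.843 over 395 CpGs and a read share of 1.24. At the placed ESRRG start on hg19 position 217262960, 17 of 41 CpGs within 600 bp were lower by at least 25 points, 6 of them called, and 0 were higher. The distance of this start from the outer end of the gene was not computed. The next bins were chromosome 4 from 188 to 189 Mb (-10.5 points ± 1.53), chromosome 14 from 33 to 34 Mb (-10.2 points ± 1.19) and chromosome 4 from 96 to 97 Mb (-9.60 points ± 1.17). The last of these holds UNC5C, a netrin receptor, and PDHA2, the testis form of a pyruvate dehydrogenase subunit. In all 5 bins between 66.3% and 73.3% of the CpGs were lower in line 2, and between 38 and 91 CpGs a bin were lower by at least 25 points.

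Rises of whole bins were smaller. Chromosome 10 from 128 to 129 Mb, which holds ADAM12, a metalloprotease, went from 42.9% to 48.4%, a difference of 5.56 points ± 0.779, with 21 CpGs called higher, 0 lower and 4 rising runs. Chromosome 12 from 99 to 100 Mb, with the apoptosis gene APAF1, IKBIP and ANKS1B, went from 20.8% to 24.97% (4.14 points ± 0.808). Chromosome 12 from 101 to 102 Mb, with ANO4 and the monocarboxylate transporter SLC5A8, was higher by 2.08 points ± 0.752. Chromosome 2 from 237 to 238 Mb, with the homeobox gene GBX2, was higher by 1.79 points ± 0.473, though the run at the GBX2 start itself fell (chr2:237076835-237077068, 7 CpGs, 88.4% to 46.2%, 0 called). Chromosome 4 from 41 to 42 Mb, with the ubiquitin hydrolase UCHL1, was higher by 1.31 points ± 0.432. Read share in these 5 bins lay between 0.968 and 1.04.

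To find the length over which CpGs differed together, pairs of CpGs were compared by their distance. The differences of 5808297 pairs at most 50 bp apart correlated with r = 0.316, pairs 50 to 100 bp apart with r = 0.180, pairs 200 to 500 bp apart with r = 0.0827 and pairs 50 to 100 kb apart with r = 0.0370. Pairs that close often lie on the same sheared fragments of 150 to 200 bp and then share reads, and the counting error of single CpGs lowers every r. Beside a CpG lower by at least 25 points, 23.8% of partners within 50 bp were lower by as much, against 3.79% of all CpGs. At 500 to 1000 bp this share was 6.76%, and at 50 to 100 kb it was 7.27%.

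Runs were then taken as at least 4 neighbouring compared CpGs, at most 500 bp apart, that each differed by at least 25 points in the same direction. Line 2 had 1196 falling runs with 5866 CpGs and 234 rising runs with 1253 CpGs. Against the whole, 3.79% of CpGs were lower and 1.07% higher by that much. Runs were short: the median had 4 CpGs over 50 bp for falls and 58 bp for rises, 89.4% of falls and 85.9% of rises spanned at most 150 bp, and the longest spanned 690 bp. Only 36 falls and 14 rises had at least 10 CpGs. Of the CpGs in falling runs 25.6% were called, and 23.6% in rising runs; 564 falls and 127 rises held no called CpG. A run that fits in a fragment rests on the same reads at each of its CpGs, so its number of CpGs does not count as that many observations. Median depths in falling runs were 22.5 reads in the parental library and 30.5 in line 2.

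**Figure D3:**
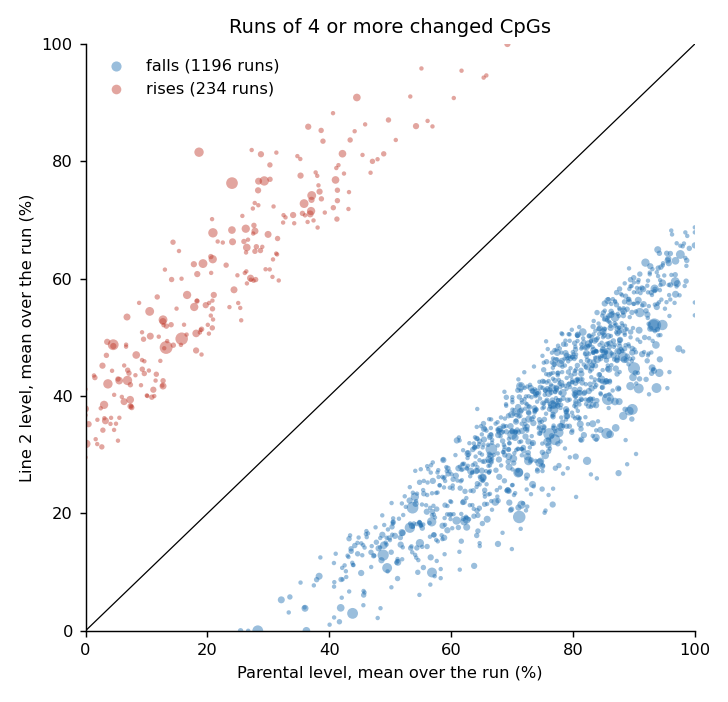
Each point is a run, placed by its mean methylation level (%) in the parental library (horizontal) and in line 2 (vertical), with size growing with its number of CpGs; blue marks the 1196 falls, red the 234 rises, and the line marks equal levels. Of the falls 459 started at 80% or more and 190 ended below 20%; 31 rises ended at 80% or more.

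The median falling run went from 76.0% to 37.4% and the median rising run from 20.9% to 59.9%. Of the falls, 190 ended below 20% and 1006 between 20% and 80%; of the rises, 203 ended between 20% and 80% and 31 at 80% or more. By density, falling runs held 37.8 of every 10000 compared CpGs in windows of 20 to 39 CpGs, 19.7 in windows of 80 or more, and 6.95 in windows of 1 to 4, where few CpGs lie close enough to form a run. Within 1 kb of a placed gene start lay 16.5% of the CpGs of falling runs and 19.1% of those of rising runs, against 23.9% of all compared CpGs. Of the placed promoters 85.8% lay below 20% in the parental library, which leaves little room for a falling run. These shares were not matched for level, so whether runs avoid gene starts cannot be read from them. Per 100000 compared CpGs, chromosome 12 had the most falling runs (81.0) and chromosome 9 the fewest (35.2). For rises chromosome 11, with a read share of 1.15, had the most (20.4) and chromosome 3 the fewest (3.73). The part of read share in this was not tested.

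The falling run with the most CpGs lay at chr12:75784856-75785123, 56406 bp from the nearest placed start, that of GLIPR1L1. Its 21 CpGs had a mean of 93.3% in the parental library (66.7% to 100%) and 52.1% in line 2 (21.4% to 66.7%), and 3 of them were called. The second, chr17:76128029-76128406, had 18 CpGs that went from 71.2% to 19.4%, 4 of them called, 54727 bp from the start of TK1. The third spanned the start of OXCT1, at chr5:41870500-41870589, where 17 CpGs went from 85.7% to 39.5%. At its deepest CpG, 18 of 23 parental reads were methylated (78.3%, exact 95% interval 56.3 to 92.5) against 11 of 30 in line 2 (36.7%, 19.9 to 56.1). The intervals did not overlap, but over all compared CpGs the Fisher exact test gave an adjusted p of 0.201. The fourth, chr12:14720250-14720939, spanned the starts of PLBD1-AS1 and of PLBD1, a phospholipase B-like protein, with 17 CpGs that went from 90.01% to 44.7%. The fifth, chr15:63569117-63569416, was 1 of 3 falling runs with 16 CpGs, of which the one with the largest difference is given. It was read more deeply, at medians of 55 and 68 reads, and 13 of its 16 CpGs were called (76.1% to 33.5%). Its deepest CpG had 82 of 97 methylated reads (84.5%, 75.8 to 91.1) in the parental library and 68 of 123 (55.3%, 46.1 to 64.3) in line 2.

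At NTN4, the run chr12:96185059-96185199, 126 bp before the start, had medians of 61 and 95 reads, and all 15 CpGs were called, from 48.8% to 12.9%. Its deepest CpG had 33 of 71 methylated reads (46.5%, 34.5 to 58.7) against 13 of 102 (12.7%, 6.96 to 20.8), with an adjusted p of 0.000704 by the Fisher exact test. At SIX2, the run chr2:45236545-45236713 covered the start with 15 CpGs that went from 85.6% to 47.2%, at medians of 17 and 51 reads, and 1 was called. At chr1:186649973-186650124, 187 bp from the start of PACERR, the RNA antisense to PTGS2, 14 CpGs went from 89.7% to 37.7%, and 5 were called. There the deepest CpG had 18 of 18 methylated reads in the parental library (100%, 81.5 to 100) and 10 of 24 in line 2 (41.7%, 22.1 to 63.4). At FHDC1, chr4:153859053-153859130, 6 CpGs went from 62.1% to 21.99%, 5 of them called. At ESM1, an endothelial proteoglycan, 8 CpGs of chr5:54281467-54281833 went from 81.6% to 50.9%, 5 of them called. The runs at PACERR, FHDC1 and ESM1 were chosen here after their values were seen.

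The rising run with the most CpGs lay at chr10:124909459-124909570, 1807 bp from the start of HMX2, a homeobox gene, where 19 CpGs went from 13.2% to 48.3%. None of them was called, at medians of 33 and 30 reads. The second, chr16:28634708-28634823, had 18 CpGs that went from 15.8% to 49.8%, with 0 called. The third was the run at STAT6. The fourth, chr12:122689061-122689162, had 14 CpGs that went from 4.55% to 48.7% at medians of only 11 and 12 reads. The fifth, 1 of 5 rising runs with 11 CpGs and placed first among them by its difference, lay 38 bp from the start of CBR1, a carbonyl reductase, at chr21:37442360-37442477. It had the largest difference of any rising run. Its 11 CpGs went from 18.6% (0% to 36.4%) to 81.6% (57.9% to 94.7%), a difference of 62.9 points, and 6 were called. Within 600 bp of the CBR1 start, 25 of 65 CpGs were higher by at least 25 points and 4 were lower, and the mean went from 44.5% to 62.4%. Rises outside the first 5 with more depth were those at chr11:70245813-70246024, with 11 of 11 CpGs called (6.89% to 42.7%, medians of 92 and 153 reads), and chr17:75421288-75421577, with 8 of 11 called (3.68% to 42.1%).

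At STAT6, 16 CpGs at chr12:57504205-57504424 rose together. They averaged 24.0% in the parental library, with single CpGs from 9.52% to 30%, and 76.3% in line 2, with single CpGs from 64.7% to 92.9%. The levels of both libraries did not overlap at any of these CpGs, and the difference of 52.3 points was the fourth largest among 234 rising runs. It was the third by number of CpGs. The Fisher exact test called 5 of the 16, at medians of 40 reads in the parental library and 14.5 in line 2. The deepest had 13 of 44 methylated reads (29.5%, 16.8 to 45.2) against 16 of 22 (72.7%, 49.8 to 89.3), with an adjusted p of 0.0945 by the Fisher exact test, and was not among them. The run lay 133 to 352 bp before the 1 STAT6 start in the promoter table (hg19 position 57504072), and these were all the compared CpGs within 600 bp of it. That start lies 1073 bp inside the outer end of the gene in RefSeq, so the run is not before the outermost STAT6 start. STAT6 was placed by 9 matched CpGs against 5 at the next best place, which met only a looser rule chosen after the data had been seen.

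**Figure D4:**
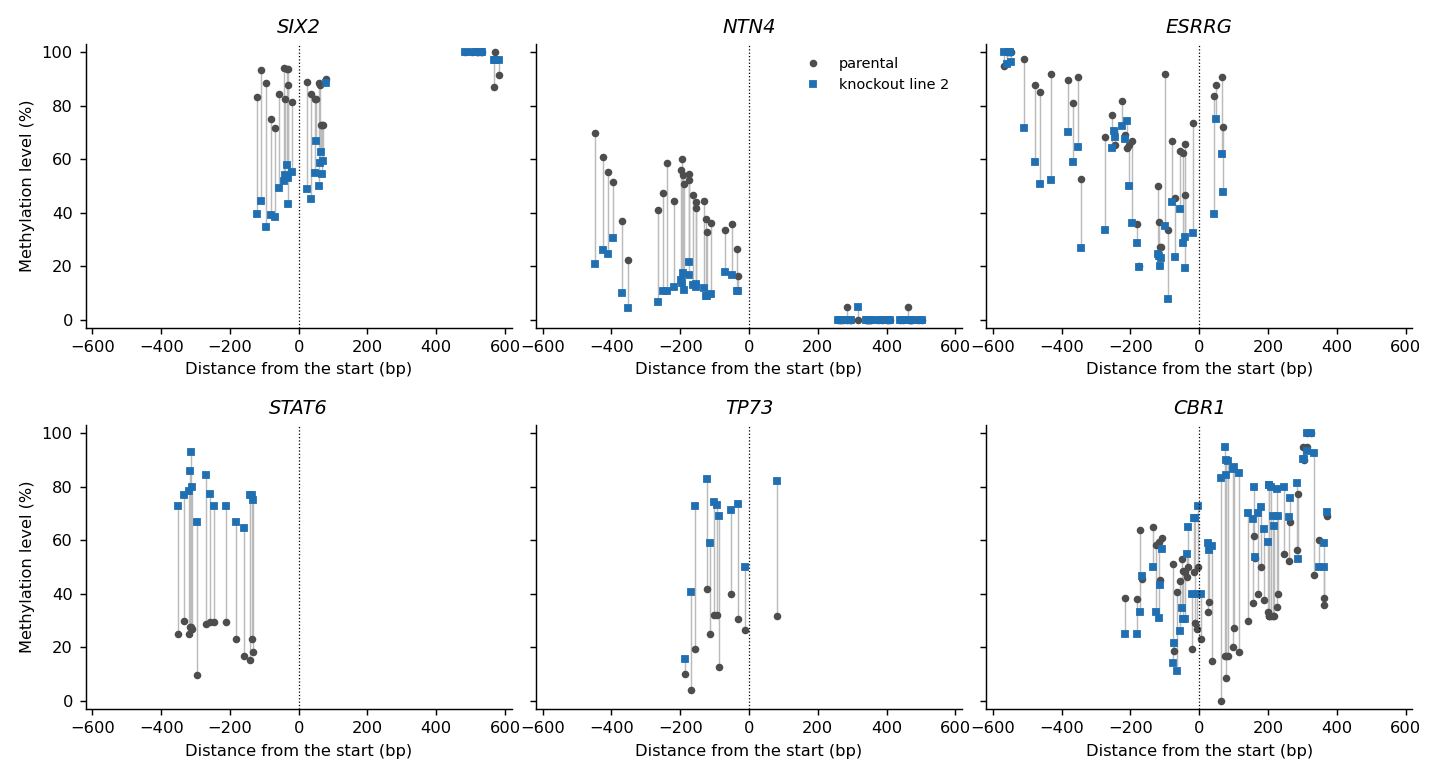
Methylation level (%) of each compared CpG within 600 bp of 6 gene starts, against its distance from the start in the direction of transcription (bp, dotted line at 0), for the parental library (circles) and line 2 (squares), joined by a grey line. Line 2 is lower at SIX2, NTN4 and ESRRG and higher at all 16 CpGs before STAT6, at TP73 and at many CpGs after the CBR1 start; NTN4 has levels near 0 after its start in both.

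Promoters, taken as the 300 bases from 250 before to 50 after a RefSeq start, could be placed for 11723 starts of 10039 genes with at least 5 compared CpGs. Of these, 22 were lower by at least 25 points (0.188%) and 8 higher (0.0682%); at 10 points, 350 were lower (2.99%) and 69 higher (0.589%). Placed promoters were mostly unmethylated, with 10054 (85.8%) below 20% in the parental library, and 97.4% of these changed by less than 5 points. Placement needed at least 8 matched CpGs in the 300 bases, so CpG-poor promoters are not among them and this share does not describe them. The promoter mean went from 10.3% to 9.54%, and the median difference was -0.00667 points. By level over both libraries, the mean difference was -0.191 points below 20% (10079 promoters), -4.08 points from 20% to 40%, -5.34 points from 40% to 60%, -5.79 points from 60% to 80% and -2.11 points above 80%. As for windows, sorting by this average can set part of the contrast between bands. Among the 1043 promoters from 20% to 80%, 267 (25.6%) were lower by at least 10 points and 52 (4.99%) higher. No promoter went from 80% or more to below 20% (0 of 631), and none went the other way.

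The 10 promoters with the largest falls were led by SIX2, which went from 85.6% (71.4% to 94.1% over its 15 CpGs) to 47.2% (34.7% to 57.7%), a difference of -38.3 points. EDNRA, the endothelin A receptor, went from 69.1% to 34.9% (-34.2 points, 3 of 8 CpGs called), and RAX, a homeobox gene of the retina, from 48.0% to 17.0% (-31.0 points, 1 of 7 called). ACOT12, a liver acyl-CoA thioesterase, went from 46.9% to 16.2% (-30.7 points, 0 of 10 called). NTN4 went from 43.6% to 13.0% (-30.6 points, 15 of 20 called), and KCNIP4, a partner of potassium channels, from 83.4% to 52.9% (-30.5 points, 3 of 7 called) at a start 251032 bp inside the gene. OXCT1 went from 78.6% to 49.03% and PLBD1 from 88.1% to 58.6%, both -29.5 points. MYO15A, a myosin of inner ear hair cells, went from 73.6% to 44.2% (-29.3 points), and CSMD2 from 47.8% to 18.5% (-29.3 points). Of these 10, only NTN4 was called at most of its CpGs. The last promoter past 25 points differed by -25.1 points and the next one by -23.5 points.

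Among the rises, TP73, a relative of p53, went from 24.8% (3.85% to 41.7% over 11 CpGs) to 62.0% (15.8% to 82.9%), a difference of 37.2 points, with 2 CpGs called. This start lies 45530 bp inside the gene. CYB5R2, a cytochrome b5 reductase, went from 18.9% to 55.7% (36.9 points, 0 of 7 called), at a start 767 bp inside the gene. ANO4, a membrane protein of the anoctamin family, went from 10.01% to 40.4% (30.4 points, 3 of 10 called), at a start 77515 bp inside the gene. SPART, the gene of spartin, went from 17.1% to 45.6% (28.5 points), and ACP5, tartrate-resistant acid phosphatase, from 27.6% to 55.4% (27.8 points), with 0 CpGs called in either. These starts lie 23786 bp inside SPART and 235 bp inside ACP5. Within 600 bp of the SPART start, 15 of 71 CpGs were higher by at least 25 points and 4 were lower. Their mean went from 27.6% to 32.6%, a difference of 5.02 points. EPB41L3, a membrane skeleton protein, went from 38.6% to 66.0% (27.3 points) at a start 86666 bp inside the gene, and ADAM12 from 55.4% to 82.0% (26.6 points) over 5 CpGs at medians of 11 and 10 reads. LOC124903622 went from 36.9% to 62.7% (25.9 points), TPRG1-AS1 from 35.96% to 58.8% (22.8 points) and KIAA1755 from 10.4% to 32.5% (22.1 points). At each of the 10 CpGs of the rising run at SPART the parental level was 10.5%, or 2 methylated reads of 19, as CpGs read on the same fragments share their reads.

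Promoters of gene lists fixed for this tissue and study were then read against all placed promoters, whose median difference was -0.00667 points. Of 8 genes the study followed, 4 were placed: SOX4 went from 0% to 1.39%, the folate enzyme MTHFD2 from 0.653% to 0.269%, the thymidylate synthase gene TYMS from 0% to 0.203%, and the folate carrier SLC19A1 from 0.598% to 0.362%. All 4 stayed below 2% in both libraries, and no CpG of SOX4 (8 compared, medians of 85 and 113 reads) was called. Of 33 hepatocyte genes only 4 were placed. SERPINA1 (1.56% to 0%), ONECUT1 (0.921% to 0.250%), TF (0.147% to 0%) and FOXA1 (0.168% to 0.855%) were all near 0. As 85.8% of all placed promoters lay below 20% in the parental library, the liver identity of the cells was not read from these. Of 16 housekeeping genes 10 were placed, with 0 changed by 10 points; the widest were GUSB (-1.84 points), RPLP0 (-0.413 points), PPIA (0.409 points) and SDHA (4.28 points). Of 19 genes of DNA methylation enzymes and their partners 11 were placed, with 0 changed by 10 points, from UHRF1 (16.6% to 15.1%) and UHRF2 (-0.977 points) to HELLS (0.758 points) and the methyltransferase DNMT3A (0.443% to 3.11%). Of all placed promoters below 20% over both libraries, 0.407% were lower and 0.129% higher by at least 10 points. The counts of 0 in these lists therefore set none of them apart.

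Lists with partly methylated members had wider differences, and their counts at 10 points stand beside 2.99% lower and 0.589% higher of all placed promoters, or 25.6% and 4.99% of those from 20% to 80%; nothing particular to a list is read from them. Of 14 placed clustered protocadherins, cell adhesion genes of neurons, 4 fell by at least 10 points and 0 rose by as much, with a median of -2.62 points. PCDHB14 went from 54.6% to 32.8% and PCDHA12 from 56.1% to 35.8%, while PCDHGB6 and PCDHB8 were higher by 3.13 and 3.64 points. Of 11 HOX genes 1 fell by 10 points, with a median of -2.20 points: HOXD8 went from 51.3% to 34.7% and HOXD11 from 12.8% to 4.71%, while HOXD10 was higher by 4.33 points and HOXC4, on the same stretch as HOXC5, by 3.24 points. Of 4 PAX genes PAX7 (61.6% to 49.7%) and PAX3 (30.9% to 23.9%) were lower, PAX9 was at 2.02% and 2.08%, and PAX6 was higher, from 25.2% to 32.9%. Of 10 imprinted genes, whose methylation follows the parent of origin, PLAGL1 went from 15.1% to 2.88% and L3MBTL1 from 24.0% to 14.1%, while MEST and NDN were higher by 0.659 and 0.0926 points, and the median was -3.15 points. SNRPN and SNURF lie on the same stretch (-3.74 points), and each was counted in that median. Of 13 germline genes, mostly methylated in both libraries, MAEL went from 79.4% to 66.0% and DPEP3 from 64.5% to 54.6%, while TEX101 was higher by 7.01 points and SYCP1 by 1.13 points, with a median of -0.453 points.

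**Figure D5:**
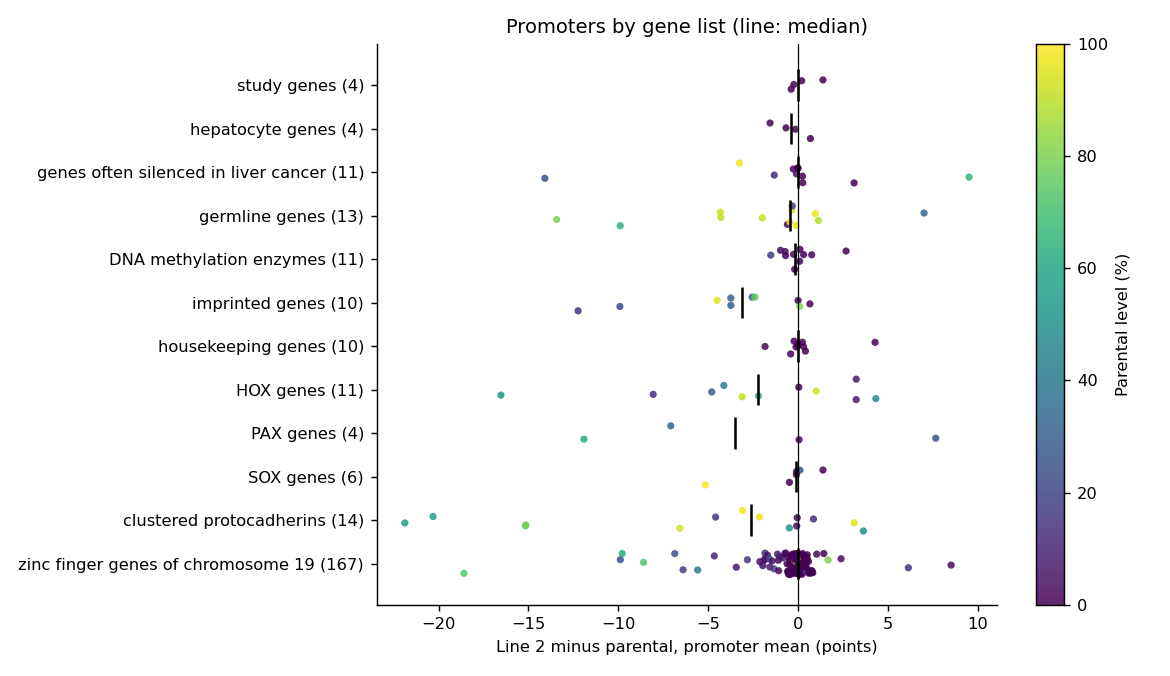
Line 2 minus parental (percentage points, mean over a promoter's CpGs) for each placed gene of 12 lists, with the number placed in brackets, the list's median as a black line and the parental level (%) as colour. The widest falls, at PCDHB14 (-21.9 points), PCDHA12 (-20.3 points), ZNF671 (-18.6 points) and HOXD8 (-16.5 points), are of genes with intermediate parental levels.

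Of 11 placed genes often silenced in liver cancer, PTGS2, the inducible cyclooxygenase, went from 24.6% to 10.5% and GSTP1, a glutathione transferase, from 97.5% to 94.2%. SFRP2, a secreted Wnt antagonist, went from 65.8% to 75.3% and the cell cycle inhibitor gene CDKN2A from 0.294% to 3.41%; the median was -0.0157 points. Of 6 placed SOX genes, SOX4 included, SOX30 went from 98.8% to 93.6% and SOX12 from 0.633% to 0.152%. SOX21 was higher by 0.105 points and SOX4 by 1.39 points. Of the 6, 0 changed by 10 points, against 2.99% lower and 0.589% higher of all placed promoters. Of 167 placed zinc finger genes of chromosome 19, whose products include many repressors of transposons, 1 fell by 10 points and 0 rose by as much, against 2.99% and 0.589% of all placed promoters, with a median of -0.0265 points. In the parental library 156 of the 167 lay below 20%. Of all placed promoters below 20% over both libraries, 0.407% fell and 0.129% rose by 10 points, so these counts do not set the list apart. ZNF671 went from 73.7% to 55.1% and ZNF439 from 24.9% to 15.0%, while ZNF614 (2.88% to 11.4%) and ZNF536 (14.8% to 20.9%) were higher. Among the placed promoters of these lists, 0 passed 25 points in either direction, against 0.188% lower and 0.0682% higher of all placed promoters. STAT6 is not counted here, as it met only the looser placement rule. Its promoter stretch went from 22.2% in the parental library to 72.2% in line 2 over 7 compared CpGs. That is a rise past 25 points, at medians of 18 and 17 reads and with 0 CpGs called.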

How the data were processed

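Genomic DNA of the parental library and of line 2 was prepared with a methyl capture kit (500 ng, sheared to 150 to 200 bp) and sequenced after bisulfite treatment and PCR. The deposited tables hold, for each strand's cytosine, counts of reads in CpG context and of methylated reads, with no normalization, and the methylation level as a fraction that the authors computed from them. That fraction equalled methylated over context reads within 5e-07. The submitters' processing notes name GRCh37 (hg19); the aligner, caller, filters and duplicate removal are not given in the sources used here. The complementary strand carried 87.0% of parental and 86.7% of line 2 reads.

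Reads of both strands were summed and CpGs named by the position of their G on the forward strand. The Fisher exact test was 2-sided, with Benjamini-Hochberg adjustment over all compared CpGs; the code was tested on simulated data. Windows, bins, runs and promoters were compared by their mean levels with no p-value. Read share was the reads of line 2 over those of the parental library, scaled to the median bin for bins and to the median autosome for autosomes. As the designed promoter of 1000 bp before to 500 bp after a start needs an annotation of the files' build, RefSeq promoters were placed by CpG spacing instead: at least 8 matched CpGs, at least 90% of the CpGs in the files matched, and a next best place with no more than 50% as many. Of 33725 promoters 12602 were placed, and 32 whose neighbours lay at another distance were then left out, a step chosen after the data had been seen; chromosome 8 was not used here for promoters.

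Named were the 5 falling and 5 rising runs with most CpGs, the 3 chromosomes with the largest and the smallest falls, the 5 bins and 10 promoters with the largest difference in each direction, all placed study genes, the 2 widest falls and rises of each other list (a gene with several starts by the start with most CpGs), STAT6 and SOX4. Other runs and starts were named after their values were seen. The comparison, members and lists were chosen with earlier results of these data known. The work ran in Python 3.11.15 with numba 0.67.0, scipy 1.17.1, pandas 2.3.3, numpy 2.4.6 and matplotlib 3.10.9. Alternatives covered depth, strand, thinning, read share, thresholds, window and bin size, run length and placement.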

Additional observations from a re-analysis of the deposited data

How the results depend on the processing

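Of 80 alternative values for 12 results, 35 stayed within 1.5 times the count or within the counting interval, and 45 moved. Only the mean difference and the gap between sparse and dense windows have a sign that could reverse, and 0 of their values did. For counts, the direction is read from the share of falls. Falls made up 88.3% to 90.4% of the called CpGs over 10 settings, 66.7% to 87.6% of the called windows over 11, and 77.3% to 85.2% of the runs over 13; the 66.7% rests on 3 windows.

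The mean difference went to -2.055 points with at least 20 reads, -2.071 on the complementary strand alone, -2.034 in bins with a read share within 5% of the median (66.7% of the CpGs) and -2.337 when weighted by reads. Thinning to the shallower library left 9575 CpGs lower and 1096 higher, an adjusted p under 0.01 left 7630 and 810, at least 50 points left 2613 and 297, and the bins of even read share held 9208 lower. Windows numbered 215 higher with at least 5 reads, 344 lower and 64 higher with at least 20 reads, 487 lower in bins of even read share, 12746 and 1889 at 10 points, 2 and 1 at 50 points, and 104 and 31 with at least 10 CpGs. Runs numbered 1866 and 439 with at least 5 reads, 536 and 107 with at least 20 reads, 753 falls in bins of even read share, 12006 and 2494 at 10 points, 14 and 3 at 50 points, 3558 and 618 with at least 3 CpGs, 218 and 64 with at least 6, and 120 and 25 when each CpG had to be called by the Fisher exact test. Promoters numbered 13 lower and 2 higher with at least 20 reads, and 10 and 5 with at least 10 CpGs. The gap between the sparsest and the densest windows, -2.484 points as reported, was -2.537 points by tested CpGs and -2.395 over windows. The range over chromosomes went from 1.137 to 0.8977 points, and 95.29% of 500 kb bins and 99.38% of 2 Mb bins were lower, against 98.47%. Fewer reads, CpGs or samples pass the stricter settings by construction; for the other moves the cause was not tested.

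Both leaving out CpGs with over 500 reads (15143 lower, 1758 higher) and a looser placement (29 promoters lower, 10 higher) were added once values were known. No paired analysis was possible because each side has 1 library. Depth limits calls of single CpGs, which thinning to the shallower library lowered; at medians of 30 and 37 reads, 21003 were lower and 2596 higher with a threshold of 10 points in place of 25.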

Other observations

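The X chromosome was left out of the comparison. Its 40081 CpGs with at least 10 reads in both libraries had a mean of 37.4% in the parental library and 35.3% in line 2, a difference of -2.16 points, near that of the autosomes. There 109 CpGs were called lower and 12 higher, with 18 falling and 2 rising runs and a read share of 1.00 in line 2. At the 224111 CpGs with enough reads on each strand, the mean difference was -2.65 points on the forward strand and -2.75 points on the complementary strand, with r of 0.273 between the strands across these CpGs, which share libraries.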
